A study of Zea mays with 18 samples.

Results

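The starchy endosperm of maize kernels that carry the R1-sc allele was compared with that of kernels carrying R1-g. The comparison was defined by the library labels and took 6 of the 18 libraries of the series, 3 of each genotype, and all 46430 annotated features of the count tables. Of these features, 12909 had enough reads to be tested. R1-g is the wild type according to the series design, and the labels name no agent applied to any group. Both alleles were in the W22 inbred background, the plants stood in the field and were self-pollinated, and the endosperm was cut by laser microdissection 19 days after pollination. The other libraries are aleurone of the same genotypes and both compartments of r1-m3, a further r1 genotype of the series. The 3 libraries of a group are biological replicates per the design text, which does not say how many kernels or ears each one holds.

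R1 encodes a basic helix-loop-helix transcription factor which, together with the MYB factor C1, switches on the enzymes of anthocyanin synthesis. In kernels the purple pigment is made in the aleurone, the outermost cell layer of the endosperm. The starchy endosperm beneath it normally has no pigment and fills with starch and with the storage proteins called zeins. The count tables name nuclear genes by identifiers of the genome build B73 RefGen_v4, and none of these was paired with a gene symbol, so r1, the anthocyanin enzymes, the zeins and the starch enzymes could not be picked out. Which feature is r1 was therefore not known here, and the genotype labels could not be checked against its level. Symbols were available for the mitochondrial and plastid genes and for microRNA precursors.

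Feature totals were 14.3 to 16.9 M counts (M, mega-counts) in R1-g and 12.5 to 15.3 M in R1-sc. Features with at least 1 count numbered 13780 to 16143 in R1-g and 11739 to 13583 in R1-sc, so every R1-sc library detected fewer. R1-sc replicate 2 stood apart. In it, 25 features were at 0 although both other R1-sc libraries held 200 or more counts, against 0 to 4 such features in the other R1-g and R1-sc libraries. Replicate 2 of r1-m3 starchy endosperm, which shares in the estimate of the spread, had 22. Levels are given in CPM, counts per M scaled by TMM factors. Log2 CPM correlated at 0.732 to 0.745 between R1-g libraries, at 0.651 to 0.753 between R1-sc libraries and at 0.651 to 0.742 between the genotypes. Without R1-sc replicate 2, the 4 pairs within genotypes lay at 0.732 to 0.753 and the 6 pairs between them at 0.674 to 0.742.

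Few features separated the genotypes. By edgeR's quasi-likelihood test with Benjamini-Hochberg adjustment, 4 features of 12909 (0.031%) passed an adjusted p of 0.05. Of these, 3 were higher in R1-sc (0.0232% of features tested) and 1 was lower (0.00775%). All 4 are nuclear gene models without a symbol in the sources used here. Their levels below are CPM, which compares libraries for 1 gene and not genes of different length. DESeq2 called 157 features (1.22%), 68 higher (0.527%) and 89 lower (0.689%), the 4 among them, and without any filter on low counts edgeR called 46. Leaving out replicate 2 of all 3 starchy endosperm groups, an alternative chosen after seeing the data, edgeR called 18, again with the 4 among them.

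**Figure D1:**
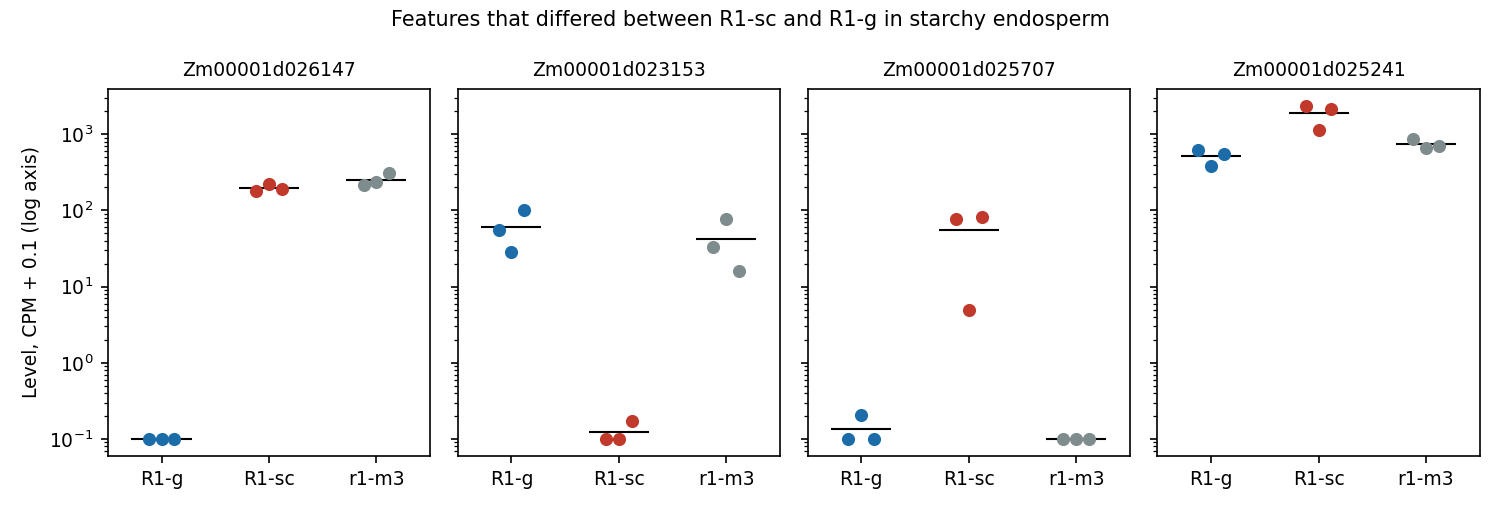
Level of the 4 features that passed the test, in CPM + 0.1 on a log axis, in the 9 starchy endosperm libraries. Each point is 1 library and the line is the group mean. Zm00001d026147 has no count in R1-g and lies at 177 to 224 CPM in R1-sc, and Zm00001d023153 shows the opposite pattern.

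Zm00001d026147 was the clearest difference. It had 0 counts in each of the 3 R1-g libraries and 2452, 2427 and 2756 counts in the 3 R1-sc libraries, which is 177, 224 and 194 CPM. The R1-sc libraries lay close together, and none of the R1-g libraries held a single read. The mean in R1-sc was 198 ± 23.6 CPM (SD, n = 3), at least 3232-fold higher than a floor of 3 counts over the R1-g group. The edgeR log2 difference was 14.58 with an SE of 0.66 and an adjusted p of 5.87e-09, and a fitted difference against a group at 0 depends on the prior count. The feature passed the test in every alternative run. In r1-m3 starchy endosperm it lay at 217, 236 and 307 CPM, a log2 difference from R1-sc of 0.35 with an adjusted p of 0.81 (edgeR). Whether this feature is r1 is not known from the sources used here.

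Aleurone differed in that R1-g did hold reads of Zm00001d026147. The counts were 1212, 136 and 1431 in R1-g aleurone, 8410, 3496 and 671 in R1-sc aleurone and 6743, 3547 and 6633 in r1-m3 aleurone. The R1-g and R1-sc aleurone libraries overlapped. In a fit of all 18 libraries the aleurone log2 difference of R1-sc from R1-g was 2.24 with an SE of 0.72 and an adjusted p of 0.175 (edgeR). The difference in starchy endosperm exceeded that in aleurone by 12.86 on the log2 scale with an SE of 1.49 and an adjusted p of 7.73e-05 for this interaction (edgeR).

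**Figure D2:**
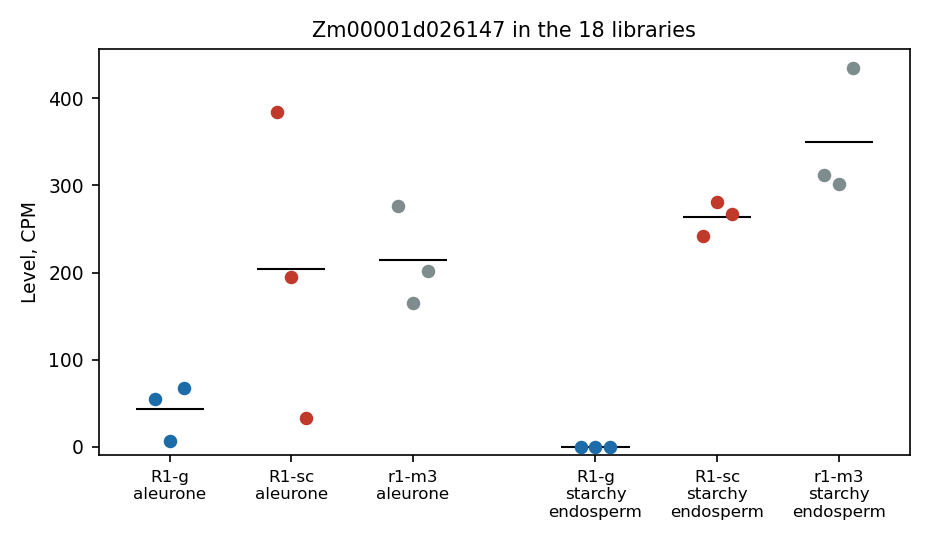
Level of Zm00001d026147 in CPM, scaled over all 18 libraries, by genotype and compartment. Points are libraries and lines are group means. The 3 R1-g starchy endosperm libraries sit at 0, while R1-g aleurone does not.

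Zm00001d023153 was the 1 feature that edgeR called lower in R1-sc. The 3 R1-g libraries held 934, 525 and 1403 counts, or 55.7, 28.2 and 100.3 CPM, and the R1-sc libraries held 0, 0 and 1 count. R1-g thus spread over a wide range, yet even its lowest library lay far above R1-sc. The ratio of R1-g to R1-sc was 2254 with a 95% counting interval of 404 to 89056, and the log2 difference was -10.84 with an SE of 1.14 and an adjusted p of 0.000162 (edgeR). It passed in every alternative run. In r1-m3 the libraries held 33.2, 78.2 and 15.9 CPM, within or near the R1-g range, so R1-sc was the genotype that lacked its reads in this compartment. No aleurone library of any genotype held more than 1 count of it.

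Zm00001d025707 was higher in R1-sc and uneven among its libraries. The R1-g libraries held 0, 2 and 0 counts and the R1-sc libraries 1070, 52 and 1160, or 77.4, 4.80 and 81.5 CPM. The groups did not overlap, but R1-sc replicate 2, the library that stood apart, was the low one. The ratio of R1-sc to R1-g was 1449 with a 95% counting interval of 401 to 11971, and the log2 difference was 10.18 with an SE of 1.54 and an adjusted p of 0.0299 (edgeR). All 3 r1-m3 starchy endosperm libraries were at 0. In aleurone it held 42, 0 and 97 counts in R1-sc and 0 in all R1-g and r1-m3 libraries. Its call was lost on leaving out R1-g replicate 1, 2 or 3 (adjusted p 0.0743, 0.0608 and 0.161) or R1-sc replicate 1 or 3 (0.1099 and 0.294), and in other alternatives given below.

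Zm00001d025241, the third feature called higher, lies outside the rule for naming features and was chosen after its values were seen. It was abundant in both genotypes, at 624, 386 and 553 CPM in R1-g and 2371, 1154 and 2161 CPM in R1-sc. The lowest R1-sc library lay above the highest R1-g library, and R1-sc replicate 2 was again the low one. The means were 521 ± 122 and 1895 ± 651 CPM (SD, n = 3 each), a 3.64-fold difference, and the log2 difference was 1.86 with an SE of 0.31 and an adjusted p of 0.0373 (edgeR). The r1-m3 libraries held 862, 652 and 701 CPM, all above R1-g and all below R1-sc. The call was lost on leaving out any R1-g replicate (adjusted p 0.0676, 0.158 and 0.181 for replicates 1, 2 and 3) or R1-sc replicate 1 or 3 (0.1099 and 0.294, tied with Zm00001d025707 by the adjustment), and in the 6 libraries alone (0.239).

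Beyond these 4, the next 10 features by p had adjusted p-values of 0.0738 to 0.408 (edgeR), 9 of them higher in R1-sc. All 10 had groups that did not overlap. Over all features, R1-sc lay wholly above R1-g in 5.3% and wholly below in 8.5%. Picking by small p favours such features, so the lack of overlap is no separate result. Features present in 1 genotype and absent from the other were rare. Counting those at 10 CPM or more in all 3 libraries of one genotype and at 0 in all 3 of the other, 2 were found only in R1-sc, Zm00001d026147 and Zm00001d025901, and none only in R1-g. Zm00001d025901 was named after its values were seen. It averaged 20.9 CPM in R1-sc and had an adjusted p of 0.140 (edgeR).

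The identifier numbers of the 4 called features all lie between 23153 and 26147 in the Zm00001d series. That range was set by the calls themselves and holds 612 of the 12656 nuclear models tested (4.84%). Among nuclear models that were not called, it held 80 of 908 with an unadjusted p up to 0.05 (8.81%), 19 of 179 up to 0.01 (10.6%) and 6 of 24 up to 0.001 (25%). The share in the range was thus larger at smaller p. Positions on the genome were not used here, and this is a description with no test.

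**Figure D3:**
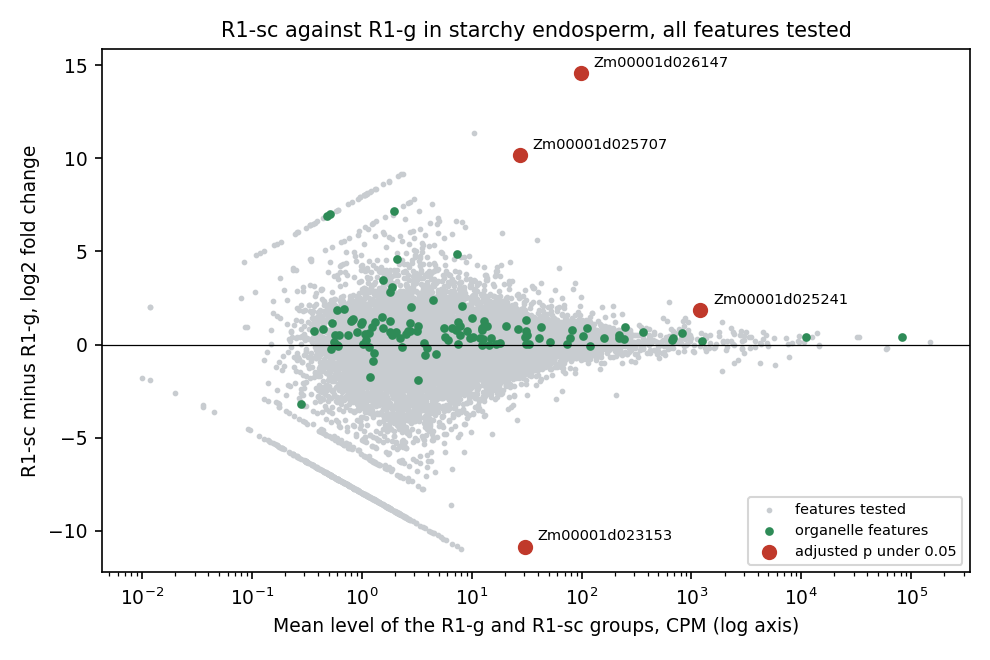
Difference between R1-sc and R1-g in starchy endosperm (log2) against the mean level of the 2 groups (CPM, log axis) for the features tested. Red points passed an adjusted p of 0.05 and green points are organelle features; the scatter widens below 10 CPM.

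How far a difference had to go to be seen depended on the level. Over all features the median log2 difference was -0.04, the middle of the distribution ran from -0.95 to 0.71, and 5504 (42.6%) differed by more than 2-fold. The median SE of the log2 difference was 1.85 for the 6407 features at 1 to 10 CPM, 0.76 for the 4526 at 10 to 100 CPM, 0.35 for the 566 at 100 to 1000 CPM and 0.30 for the 80 at 1000 CPM or more. Of the 5504 differences over 2-fold, 4346 lay under 10 CPM, and 868 had an unadjusted p up to 0.05. Without adjustment, 389 features were higher and 545 lower at p up to 0.05 (7.24% of those tested). All 3 R1-sc libraries lay above all 3 R1-g libraries for 684 features (5.3%) and below them for 1097 (8.5%). The lower side was heavier only among low features: 794 of those 1097 lay under 10 CPM.

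The most abundant transcripts of the tissue were looked at as a set of 20. The 20 most abundant features took 55.8 ± 1.56% of feature counts in R1-g and 55.5 ± 2.29% in R1-sc (SD, n = 3 each). They comprise 13 nuclear models, 2 mitochondrial features and 5 ENSRNA features, which are noncoding RNAs of the annotation without a symbol. Their log2 differences ran from -1.07 to 0.60 with SEs of 0.20 to 0.82, 19 of the 20 within 2-fold. R1-sc lay wholly above R1-g in 3 and wholly below in 0, against 5.3% and 8.5% of all features. EdgeR called none, against 0.031% of all features, a share at which 20 features would rarely hold a call.

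Aleurone RNA in the captured tissue was followed with features that were higher in aleurone than in starchy endosperm of r1-m3, a genotype outside the comparison. Replicate 3 of r1-m3 aleurone was left out of making the list, since it lacked only 48 of the features with 10 or more counts in either of the other r1-m3 aleurone libraries, where the other libraries of the series lacked 1092 to 3498. The list holds 628 features, which took 12.01% to 15.1% of counts in the R1-g and R1-sc aleurone libraries. In starchy endosperm they took 0.440%, 0.403% and 0.399% in R1-g and 0.323%, 0.3897% and 0.272% in R1-sc. All R1-g libraries lay above all R1-sc libraries, and the exact two-sided permutation p was 0.1, the smallest that 3 against 3 libraries can give. Listed features at 0 numbered 266 to 371 in R1-g and 404 to 429 in R1-sc.

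Among the 208 of these features that were tested, edgeR called none and 18 (8.65%) had an unadjusted p up to 0.05, against 7.24% of all features. DESeq2 called 3 (1.44%), all lower, against 1.22% of all features. Both shares are near those of all features. Their median log2 difference was -0.65 against -0.04 over all features, and 35 (16.8%) had R1-sc wholly below R1-g against 8.5% of all features. Low features leaned the same way in general: the list had a median level of 5.64 CPM, and over all features the median difference was -0.61 under 1 CPM and -0.22 at 1 to 10 CPM, where 10.6% had R1-sc wholly below R1-g. In such tissue samples fewer cells of a type and less RNA per cell cannot be told apart. The smaller number of features detected in R1-sc moves the same way. Only 208 of the 628 listed features passed the filter on low counts. Listed features were picked as lower in r1-m3 starchy endosperm. They could thus pass mainly through R1-g or R1-sc, and R1-g detected more of them. Features in general could also pass through r1-m3, so the list and all features are not on the same footing. The part of level, of detection and of this filter in the list's difference was not tested.

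The 587 features that were higher in r1-m3 starchy endosperm made up most of the counts in both genotypes, 62.6% to 66.8% in R1-g and 60.4% to 66.6% in R1-sc, and these ranges overlapped (exact permutation p = 0.5). Of them edgeR called 2 (0.341%, against 0.031% of all features) and DESeq2 called 16 (2.73%, against 1.22%), 12 higher and 4 lower. The median log2 difference was 0.18, and 79 (13.5%) had R1-sc wholly above R1-g against 5.3% of all features. The median level of the list was 103.6 CPM. Over all features, R1-sc lay wholly above R1-g for 7.27% at 10 to 100 CPM and 14.7% at 100 to 1000 CPM, and the part of level in the list's difference was not tested.

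**Figure D4:**
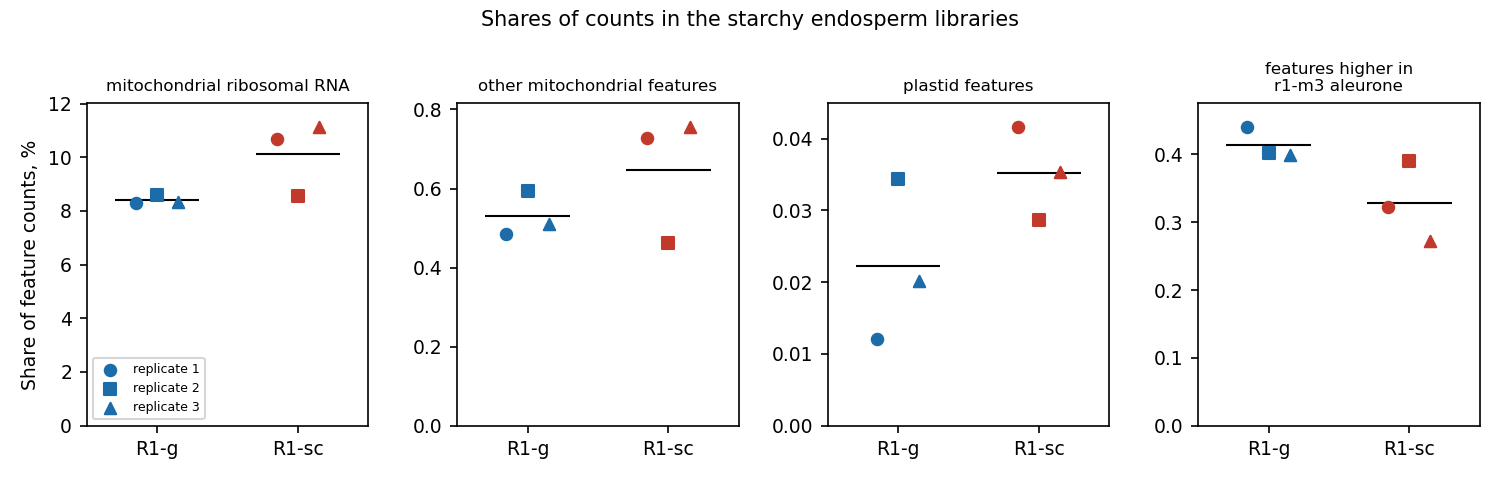
Share of feature counts (%, axes from 0) in the 3 R1-g and 3 R1-sc starchy endosperm libraries, for 3 organelle classes and for the features higher in r1-m3 aleurone. The symbol gives the replicate and the line the group mean; R1-sc replicate 2 is the lowest R1-sc library in the 3 organelle panels.

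Mitochondria and plastids keep small genomes of their own. The mitochondrial one encodes ribosomal RNAs, part of the respiratory chain and part of the ribosome that translates them. In starchy endosperm the plastids are amyloplasts, which store starch and do not photosynthesise. Mitochondrial ribosomal RNA made up 8.41 ± 0.155% of feature counts in R1-g and 10.1 ± 1.37% in R1-sc, other mitochondrial features 0.530 ± 0.056% and 0.648 ± 0.162%, and plastid features 0.0222 ± 0.0112% and 0.0352 ± 0.0064% (SD, n = 3 each). R1-sc replicate 2 lay within or below the R1-g range in all 3 classes, so the groups overlapped in each. Exact permutation p-values were 0.2, 0.4 and 0.2, all 0.733 after Benjamini-Hochberg adjustment over 11 shares.

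Single organelle transcripts mostly had positive differences, none of which passed the edgeR test. Of 365 organelle features, 130 had no count in the 6 libraries and 114 were tested. EdgeR called none, 8 (7.02%, against 7.24% of all features) had an unadjusted p up to 0.05, and DESeq2 called 1 (0.877%, against 1.22%). By these counts the organelle features were at the level of all features. Of the 114, 99 had a log2 difference above 0, against 48.1% of all features tested, and the median was 0.61. The lean was not particular to organelles: of 139 ENSRNA features tested, 102 lay above 0, with a median of 0.33. At 10 CPM or more, 41 of 43 organelle features and 55.4% of all features lay above 0, with medians of 0.39 and 0.10. In 26 organelle features (22.8%, against 5.3% of all features) all 3 R1-sc libraries lay above R1-g, and in 1 they lay below, against 8.5% of all features. At 10 CPM or more the shares wholly above were 30.2% of organelle features and 8.10% of all. Overlap was judged on TMM-scaled CPM, and the TMM factor of R1-sc replicate 2, 0.832, was the lowest of the 6 libraries. The shares wholly above without TMM factors were not worked out. Transcripts of 1 organelle share a genome and a source, so they are not independent measurements.

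**Figure D5:**
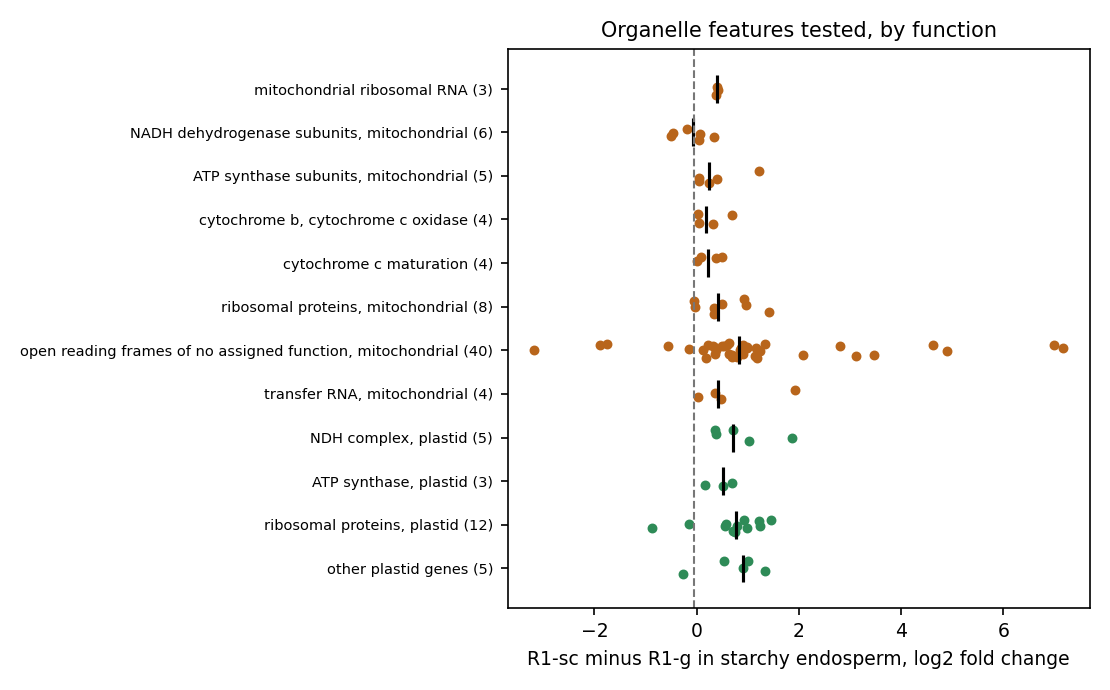
Log2 difference between R1-sc and R1-g for the organelle features tested, by function, for groups with 3 or more of them (number in brackets). Points are features, black bars are group medians and the dashed line is the median of all features, -0.04; every group median but that of mitochondrial NADH dehydrogenase lies to its right.

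Among the mitochondrial ribosomal RNAs, all 3 had positive differences, with a median of 0.40. The large-subunit RNA, rrn26, held 73953, 66669 and 74725 CPM in R1-g and 84689, 92236 and 104199 CPM in R1-sc. Its groups did not overlap, and its log2 difference of 0.38 with an SE of 0.20 gave an adjusted p of 0.758 (edgeR). The small-subunit RNA, rrn18, had a log2 difference of 0.42 with an SE of 0.22, again without overlap in TMM-scaled CPM. Without TMM factors, the share of mitochondrial ribosomal RNA was 8.55% in R1-sc replicate 2, inside the R1-g range of 8.31% to 8.59%. The TMM factor of that library was 0.832, against 0.982 to 1.16 in R1-g.

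In the respiratory chain edgeR and DESeq2 called none, against 0.031% and 1.22% of all features. Only 1 member, cox1, had an unadjusted p up to 0.05, against 7.24% of all features. With so few members these counts are no result about the respiratory chain. The 6 listed subunits of NADH dehydrogenase had a median log2 difference of -0.07 and ranged from -0.50 to 0.33. Only nad4, the highest at 0.33, exceeded 10 CPM, with a mean of 78.7 CPM. The other listed subunits lay at 1.28 to 7.47 CPM, so this median rests mostly on low features. Of the ATP synthase subunits 5 were tested, with a median of 0.24. Reads of the near-identical copies atp1-a1 and atp1-a2 that fitted both copies went to neither, so these members are uncertain. Cytochrome b and the cytochrome c oxidase subunits had a median of 0.18. Within them cox1, a core subunit of cytochrome c oxidase, held 277, 274 and 289 CPM in R1-g and 538, 281 and 536 CPM in R1-sc. R1-sc replicate 2 lay inside the R1-g range and the other R1-sc libraries lay well above it; the log2 difference was 0.69 with an SE of 0.31 and an adjusted p of 0.656 (edgeR). The 4 genes for cytochrome c maturation, which attach haem to cytochromes, had a median of 0.23.

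The mitochondrial maturase mat-r, which takes part in splicing of mitochondrial introns, was among the more even of the higher members. It held 205, 165 and 148 CPM in R1-g and 354, 297 and 335 CPM in R1-sc. All 3 R1-sc libraries lay above R1-g, by a log2 difference of 0.93 with an SE of 0.29, but the adjusted p was 0.634 (edgeR). Mitochondrial ribosomal proteins had a median of 0.42 over the 8 tested, with rps3 at 1.42 and rps12 at -0.05. Of 128 open reading frames without an assigned function, 40 were tested, 35 lay above 0 and the median was 0.83. The one with the smallest p was orf138-a, at 0.18, 0.86 and 0.36 CPM in R1-g and 4.99, 18.3 and 19.0 CPM in R1-sc, with a log2 difference of 4.89, an SE of 1.54 and an adjusted p of 0.634 (edgeR). DESeq2 called it.

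Plastid transcripts were scarce. The 5 tested features of the NDH complex, which carries electrons around photosystem I in green tissue, had a median log2 difference of 0.71. The 12 tested features for plastid ribosomal proteins had a median of 0.77. The plastid maturase matK held 26.4, 128.0 and 81.4 CPM in R1-g and 159.4, 103.2 and 177.0 CPM in R1-sc, so R1-g replicate 2 lay inside the R1-sc range. Its log2 difference was 0.90 with an SE of 0.47 and an adjusted p of 0.756 (edgeR). No plastid gene for a photosystem exceeded 18 counts in any of the 6 libraries. Genes with a copy in each inverted repeat of the plastid genome, such as ndhB, rps7 and rpl2, enter these numbers once per copy. They are uncertain because reads that fitted both copies were given to neither.

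The noncoding ENSRNA features took 15.3 ± 2.81% of feature counts in R1-g and 16.9 ± 3.83% in R1-sc (SD, n = 3 each; exact permutation p = 0.6). Of 1765, 1462 had no count in the 6 libraries and 139 were tested. EdgeR and DESeq2 called none, against 0.031% and 1.22% of all features, and 14 (10.1%, against 7.24% of all features) had an unadjusted p up to 0.05. Of the 139, 102 had a log2 difference above 0, and the median was 0.33. R1-sc lay wholly above R1-g in 14 of them and wholly below in 1, against 5.3% and 8.5% of all features. The smallest p belonged to ENSRNA049478739, at 489, 553 and 630 CPM in R1-g and 779, 1854 and 1237 CPM in R1-sc. The groups did not overlap; the log2 difference was 1.21 with an SE of 0.30 and an adjusted p of 0.421 (edgeR). All 154 microRNA precursors had 0 counts in the 6 libraries.

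The genotype difference was also set against that in aleurone. In the fit of 18 libraries, 25 of 18028 features (0.139%) had a difference between R1-sc and R1-g that was unlike in the compartments (edgeR interaction, adjusted p under 0.05), and 2160 had an unadjusted p up to 0.05. Zm00001d026147 was 1 of the 2 whose difference was higher in starchy endosperm. Of the 23 with the lower difference there, 20 were called higher in R1-sc aleurone in that fit and 2 were called in starchy endosperm. In starchy endosperm that fit called 10 of all 18028 features, and the number called in aleurone is not given here. The interaction subtracts the aleurone difference, so the aleurone calls partly follow from how the 23 were picked. For 18 of the 23 the mean level in R1-g aleurone was under 1% of that in R1-g starchy endosperm. The share of all features under this 1% was not worked out. Leaving out r1-m3 aleurone replicate 3, which the aleurone list left out as well, gave 23 interaction calls in total, all among the 25.

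The comparisons of r1-m3 in starchy endosperm share libraries with the one described here. Against R1-g, r1-m3 had 1 feature higher and 1 lower by edgeR, and against R1-sc it had 2 higher and 5 lower. For Zm00001d026147 the log2 difference was 14.58 for R1-sc and 14.93 for r1-m3, each against R1-g. For Zm00001d023153 and Zm00001d025707, r1-m3 differed from R1-sc by 10.30 and -12.72 on the log2 scale, with adjusted p-values of 0.000393 and 0.00934 (edgeR).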

How the data were processed

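Each library came as a deposited table of whole-number counts, 46430 features long, with HTSeq totals. The submitters' processing notes name these tools of the authors: HTSeq 0.11.2 (counts), Trimmomatic 0.39, HISAT2, FastQC, SAMtools and DESeq2, and the build B73 RefGen_v4. A strand setting is not given in the sources used here, so antisense or overlapping genes may share reads. Per the labels' protocols, 5 ng of RNA was amplified and about 400 ng of cDNA entered a library. No molecular identifiers were used, so intervals and floors cover the counting of reads only. They do not cover the counting of molecules before amplification or the spread between libraries. Reads with several alignments took 48.7% to 55.0% of the 6 tables and counted for no feature.

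The main test was edgeR 4.0.16 (R 4.3.3; filterByExpr, TMM, robust quasi-likelihood) on the 9 starchy endosperm libraries as 3 group means, with Benjamini-Hochberg adjustment. The SE is the log2 difference over the square root of F. The interaction used all 18 libraries. Members and lists were chosen with earlier results of these data known. Named were features that passed, did not overlap and reached 10 CPM (2 per direction without a symbol), and in each list the 4 most abundant members and the 2 with the smallest p. A table of a newer assembly named 518 features and no nuclear model, so 10 planned lists, from anthocyanin regulators to stress genes, matched 0 features and were void. Scripts were tested on simulated counts. Alternatives included DESeq2 1.42.0, other scalings and filters, a replicate block and leaving out single libraries.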

Additional observations from a re-analysis of the deposited data

Results flagged for a closer look

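The difference between R1-sc and R1-g was unlike in the compartments for 25 features, by an edgeR interaction test over 18 libraries. In Zm00001d026147 the starchy endosperm difference exceeded the aleurone difference by 12.86 on the log2 scale; R1-g held no count in starchy endosperm and 136 to 1431 counts in aleurone. Both results rest on the test of the difference itself.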

How the results depend on the processing

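Zm00001d026147 and Zm00001d023153 passed in all 21 alternatives run. The count of calls, 4 as reported, was 10 with all 18 libraries, 46 without a filter on low counts, 2 with at least 10 CPM in 3 or more libraries, 157 with DESeq2, 2 without robust estimation and 18 without replicate 2 of all 3 groups, and leaving out 1 library gave 2 to 5. Zm00001d025707 was also lost with all 18 libraries (adjusted p 0.320), with 17, r1-m3 aleurone replicate 3 left out (0.449), with the replicate block (0.127) and without robust estimation (0.0592), and was removed by the stricter filter. Zm00001d025241 was also lost with 18 libraries (0.117), with 17 (0.198), without TMM (0.134), with the stricter filter (0.0737) and without robust estimation (0.109). None of the 4 called features changed sign in any alternative, whereas 24 of the 62 named features that were not called did in at least 1. The alternatives use the same libraries and the 4 were picked by small p, so this contrast is no separate support. Why calls were lost or signs changed was not tested.

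Replicate numbers are shared by the genotypes. Same-numbered R1-g and R1-sc libraries did not deviate together (correlations of -0.064, -0.092 and 0.007), so the numbers were not used to pair them. The r1-m3 libraries were not part of these correlations. Replicate 2 of R1-sc and of r1-m3 both stood apart by features at 0 (25 and 22), and whether they deviated together was not tested. With the replicate block 3 features were called.

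Among group medians, cytochrome c maturation was 0.10 with 18 libraries, 0.10 with 17 and 0.36 without replicate 2 of all 3 groups; mitochondrial reading frames were 0.50 under the stricter filter; plastid ribosomal proteins were 1.25 without replicate 2 of all 3 groups; and plastid ATP synthase ran from -0.074 (without R1-g replicate 1) to 0.74 on leaving out 1 library. Without TMM the median of all features moved from -0.04 to -0.17, and that of all organelle features was 0.47; over the alternatives other than DESeq2 and no robust estimation the latter ran from 0.36 to 0.68. As a share of table totals, mitochondrial ribosomal RNA differed by 0.352 and plastid features by 0.00329 percentage points. The interaction count ran from 16 to 45 on leaving out 1 library: 39 and 45 without R1-sc aleurone replicate 1 or 2, and 16 without R1-sc starchy endosperm replicate 1.

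With 3 libraries a group, permutation tests cannot go below 0.1, and the median SE of a log2 difference was 1.85 at 1 to 10 CPM.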
